A study of Homo sapiens with 6 samples.

Results

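The transcription factor CREB is the nuclear end of the ADRB-cAMP-PKA pathway that norepinephrine (NE) activates, and its family was followed here at the level of mRNA. The group holds 8 genes, found by gene name in the deposited table of 26025 genes: CREB1, CREM and ATF1, the factors ATF2, ATF7 and CREB5, and the acetyltransferases CREBBP and EP300. The 8 genes were taken by name, with earlier results of these data known, and each was measured in all 6 libraries. The cells were of the NCI-H1299 line, an established line of human origin from a non-small cell lung cancer. The 3 Ctrl libraries came from cells given vehicle, which the sample titles name as DMSO and the treatment protocol as PBS. The 3 NE libraries came from cells given 10 µM NE for 48 h. Both groups had been kept for 8 to 12 h in DMEM beforehand and were then held in RPMI-1640 with 2% FBS. The comparison asks whether NE changes the mRNA of the factors through which it acts. Nothing in the labels says that the libraries of a group came from separate cultures, so the p-values measure only the spread between these libraries, which may be technical.

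When NE binds a beta-adrenergic receptor, adenylyl cyclase makes cAMP, cAMP frees the catalytic subunits of protein kinase A (PKA), and these enter the nucleus and phosphorylate CREB. CREB1, CREM and ATF1 form the subfamily with a kinase-inducible domain; they pair through leucine zippers and bind the cAMP response element (CRE), whose palindrome is TGACGTCA. Phosphorylated CREB recruits the acetyltransferases CREBBP (CBP) and EP300, which acetylate histones at the target gene. ATF2, ATF7 and CREB5 bind related elements but are driven mainly by stress-activated MAP kinases. CREM is also known for an internal promoter that gives ICER, a short repressor without the kinase-inducible domain.

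Depth was similar in all libraries, with 17373654 to 17979206 reads on genes in Ctrl and 16852751 to 17325039 in NE. Ctrl replicate 3 stood apart from the other Ctrl libraries, with 7305 genes at 0 reads against 4829 and 4833. Genes poor in GC were also higher in it: the Spearman correlation of the log2 difference with exon GC content was -0.52 against Ctrl replicate 1 and -0.48 against Ctrl replicate 2, across 14955 genes that are not independent replicates. The difference between NE and Ctrl had the same kind of trend, at -0.64, so the trend and the treatment cannot be told apart, and the values of the 8 genes are therefore given also without Ctrl replicate 3 and with the GC trend of each library removed. The epithelial keratins KRT8 and KRT18 were high in every library but lower in NE: KRT8 had 9793 to 14180 normalized counts in Ctrl and 5232 to 6448 in NE (adjusted p = 0.000604 from limma), and KRT18 had 17852 to 24941 and 6679 to 7602 (adjusted p = 8.24e-05). The mesenchymal filament VIM was lower by a log2 fold change of -0.38 (adjusted p = 0.0462 from limma), and the part of these shifts in the results was not tested. In contrast, EPCAM, CDH1 and the lung lineage factor NKX2-1 were between 0 and 4.84. PECAM1, a marker of endothelial cells, was between 16.5 and 36.6.

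Of the 8 genes, 5 were higher in NE-treated cells and 0 lower at an adjusted p under 0.05 in limma. These were CREM, ATF2, CREB1, CREBBP and EP300. Over all 15013 genes tested the same rule put 24.6% higher and 25.5% lower. With a log2 fold change of at least 1 as well, CREM and ATF2 were called, 2 of 8, against 7.47% of all genes, and 0 members were lower, against 6.55%. In the same 5 genes every NE library lay above every Ctrl library, which was so for 29.7% of all genes, while 28.9% had every NE library below every Ctrl library and no member did. The median log2 fold change of the group was 0.49, and that of all genes tested 0.01. For ATF1, ATF7 and CREB5 the Ctrl and NE libraries overlapped. A two-sided exact permutation test on 3 against 3 libraries cannot give less than 0.1, which was its value for each of the 5 genes.

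**Figure D1:**
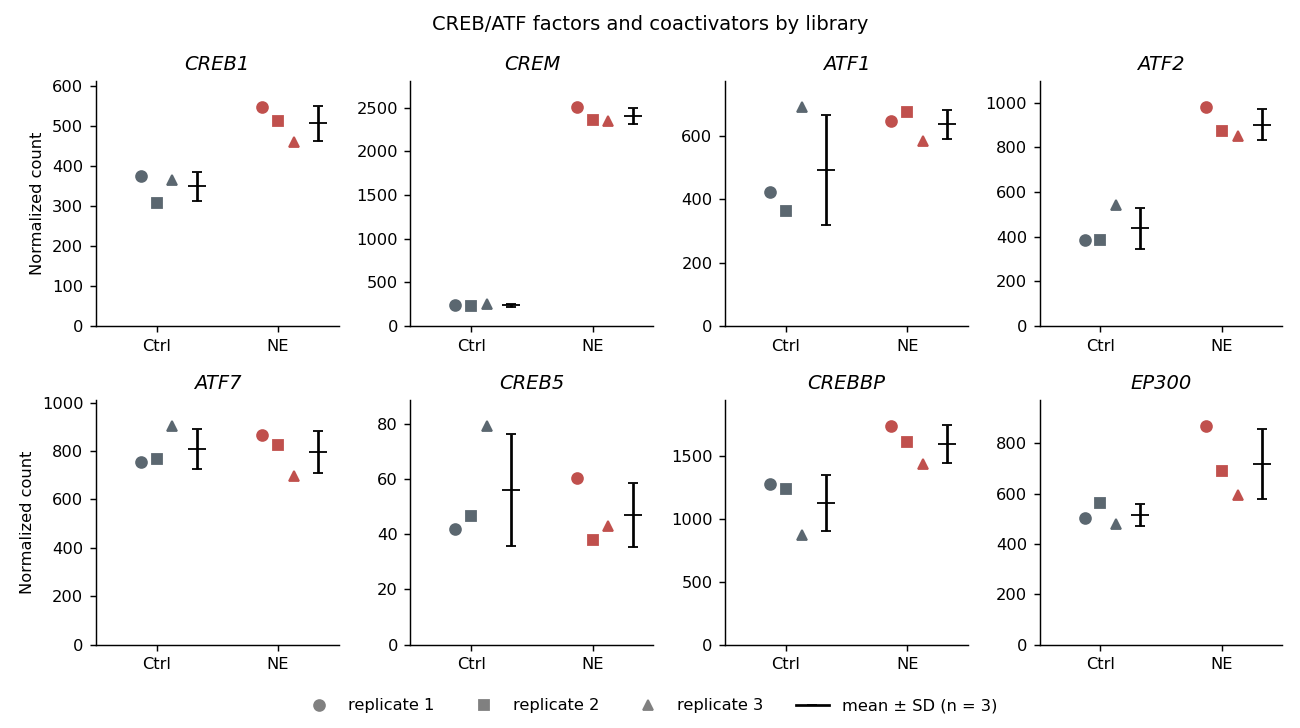
Normalized counts (y axes from 0) of the 8 genes in each of the 3 Ctrl and 3 NE libraries, with replicates by marker shape and the mean ± SD (n = 3) in black. CREM went from at most 257.7 in the Ctrl libraries to at least 2351 in the NE libraries, and for ATF1 and CREB5 the Ctrl replicate 3 library, a triangle, stood above the other Ctrl libraries.

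The largest change was that of CREM (ENSG00000095794), the cAMP response element modulator, on the plus strand of chromosome 10 from 35126791 to 35212958 of hg38. RefSeq lists 7 start windows for it, each of 300 bases with 250 before and 50 after the start, on GRCh38.p14. Of these, 3 are shown, because CREM is both a CREB relative and a gene known to carry CREs of its own. The last 3 windows lie in intron 6 of the canonical GENCODE transcript, 68287 to 69056 bases past its start, where transcripts of the ICER kind are known to begin. Another, not shown, lies in intron 3, 40718 bases past that start, and holds TGATGTCA. Capitals mark matches to TGACGTCA, to TGATGTCA or its reverse complement TGACATCA, and to the CRE core TGACG or CGTCA. The window at chr10:35195600-35195899 holds the palindrome at position 2 and TGATGTCA at position -74, counting the first base of the RNA as 0 and giving the first base of each match. Its neighbour at chr10:35194883-35195182 holds TGATGTCA at positions -59 and -48. The upstream window at chr10:35126977-35127276, whose start lies in intron 1, holds the core alone at positions -178 and -68. The CREB1 window at chr2:207529712-207530011 is given for contrast and holds none of these letters. All 4 are written 5′ to 3′ on the plus strand.
CREM internal start: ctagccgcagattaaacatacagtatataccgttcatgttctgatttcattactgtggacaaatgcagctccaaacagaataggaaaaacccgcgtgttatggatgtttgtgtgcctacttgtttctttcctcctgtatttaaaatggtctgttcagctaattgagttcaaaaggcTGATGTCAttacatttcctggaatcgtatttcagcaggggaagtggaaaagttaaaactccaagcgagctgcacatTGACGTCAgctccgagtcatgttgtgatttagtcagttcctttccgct
CREM second internal start: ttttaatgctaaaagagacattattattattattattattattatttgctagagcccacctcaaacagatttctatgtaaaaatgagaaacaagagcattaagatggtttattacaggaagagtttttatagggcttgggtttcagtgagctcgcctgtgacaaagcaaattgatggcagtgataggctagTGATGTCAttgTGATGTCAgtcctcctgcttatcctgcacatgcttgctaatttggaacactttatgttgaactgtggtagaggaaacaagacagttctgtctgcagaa
CREM upstream start: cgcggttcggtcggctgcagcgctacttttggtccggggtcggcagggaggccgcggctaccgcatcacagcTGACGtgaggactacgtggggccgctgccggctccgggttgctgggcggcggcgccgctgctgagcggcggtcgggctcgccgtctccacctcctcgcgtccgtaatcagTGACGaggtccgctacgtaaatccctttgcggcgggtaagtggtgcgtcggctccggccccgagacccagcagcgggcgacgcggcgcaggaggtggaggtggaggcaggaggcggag
CREB1 start: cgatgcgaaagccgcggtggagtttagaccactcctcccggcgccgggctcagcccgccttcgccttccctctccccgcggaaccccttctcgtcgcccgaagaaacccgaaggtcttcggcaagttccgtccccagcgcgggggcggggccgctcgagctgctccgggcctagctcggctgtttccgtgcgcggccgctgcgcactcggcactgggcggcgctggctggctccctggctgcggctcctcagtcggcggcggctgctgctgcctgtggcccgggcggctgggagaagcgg

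In normalized counts, CREM was at 235.6, 224.0 and 257.7 in the Ctrl libraries. The NE libraries had 2506, 2359 and 2351. The groups were far apart, and the spread within each was small beside the gap. The mean rose 10.1-fold, from 239.1 ± 17.1 (SD, n = 3) to 2405 ± 87.1 (SD, n = 3). On the log2 scale the rise was 3.33 (standard error 0.111, adjusted p = 4.65e-07 from limma). It was 3.38 without Ctrl replicate 3 and 2.92 after the GC correction, past the threshold in both. A count per gene sums all transcripts of CREM, so activator forms and ICER were not separated. The exons of CREM share 191 bases with CUL2, a cullin of the opposite strand, which itself rose by 0.82 on the log2 scale (adjusted p = 0.00347 from limma). The library kit was not stated to keep strand, and the part of reads from CUL2 was not tested.

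ATF2 had no RefSeq start window and was not searched. Among the 20 RefSeq start windows of the other 7 genes, the palindrome stood in 2, both of CREM and overlapping each other. TGATGTCA stood in 4, all of CREM, and the core in 5, of CREM, CREBBP and ATF7. The shares over all 35116 windows were 1.85%, 2.61% and 24.6%. The palindrome contains the core on both strands, and TGATGTCA was added to the search after the windows had been read. A match says only that these letters are present.

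**Figure D2:**
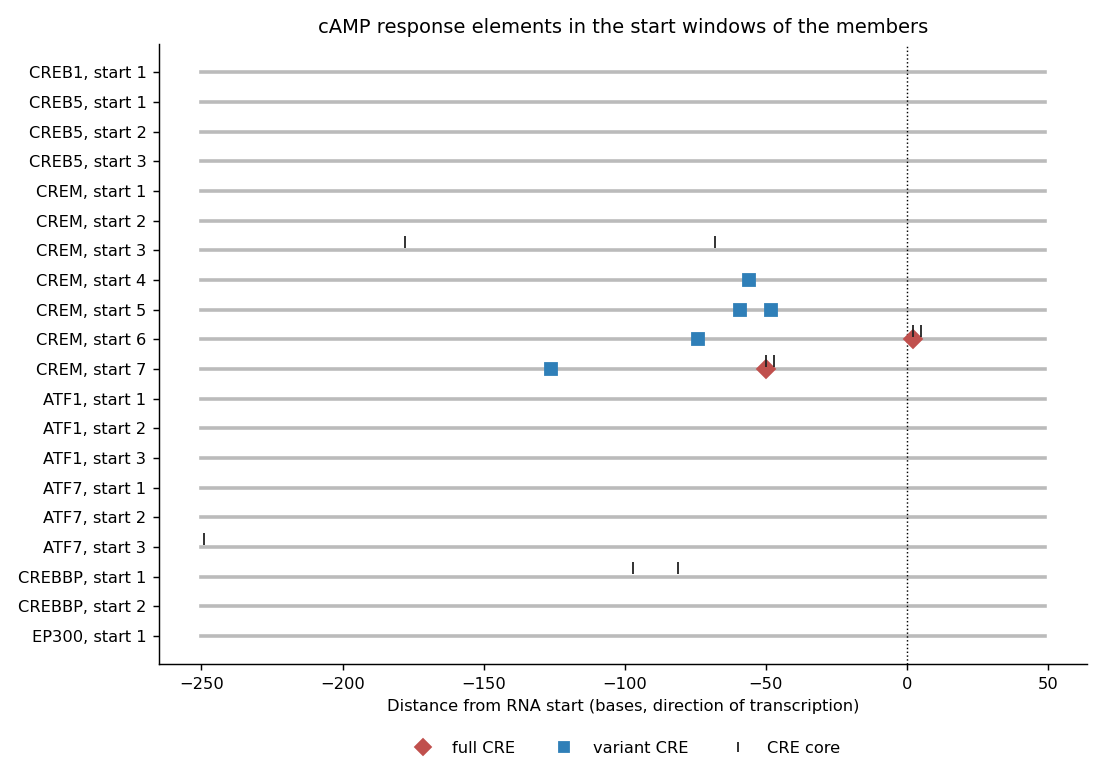
Position of CRE matches along the 300-base start windows of 7 of the genes, with the x axis in bases from the RNA start (dotted line) and 1 grey line per RefSeq start. Palindromes (diamonds) and the TGATGTCA variant (squares) appear on CREM lines alone, and ATF2 had no window to search. A palindrome also carries 2 core marks.

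CREB1 (ENSG00000118260), the founding member and the PKA substrate itself, lies on the plus strand of chromosome 2 from 207529737 to 207605988. It had 373.9, 308.0 and 365.5 normalized counts in Ctrl and 546.4, 511.4 and 460.5 in NE. The lowest NE library exceeded the highest Ctrl library, though the gap was a small part of the level. It rose 1.45-fold, or by 0.54 on the log2 scale (standard error 0.135, adjusted p = 0.0095 from limma), and it passed with each library left out in turn. Without Ctrl replicate 3 the rise was 0.57 (adjusted p = 0.00134 from limma). CREB1 has the lowest exon GC content of the 8, 36.4%, and after the GC correction the difference turned to -0.15 (adjusted p = 0.454 from limma, 95% interval -0.46 to 0.17). The rise of CREB1 mRNA thus depends on whether the GC trend is removed.

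ATF1 (ENSG00000123268), which pairs with CREB1 and is phosphorylated by PKA as well, lies on the plus strand of chromosome 12 from 50763710 to 50821162. It had 423.1, 361.9 and 689.9 normalized counts in Ctrl and 647.2, 676.0 and 584.8 in NE. Ctrl replicate 3 was the highest of all 6 libraries, and the other Ctrl libraries were below every NE library. With all libraries the log2 fold change was 0.42 (95% interval -0.06 to 0.91, adjusted p = 0.131 from limma). Without Ctrl replicate 3 it was 0.70 (adjusted p = 0.000136 from limma), and after the GC correction -0.14 (adjusted p = 0.506). For ATF1, then, both the call and the direction rested on the handling of that library and of the GC trend.

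ATF2 (ENSG00000115966), a factor activated by the kinases JNK and p38, lies on the minus strand of chromosome 2 from 175072250 to 175168382. Its normalized counts were 385.4, 383.7 and 542.9 in Ctrl and 980.2, 873.6 and 849.8 in NE. The lowest NE library was well above the highest Ctrl library. The fold was 2.06 and the log2 fold change 1.06 (standard error 0.157, adjusted p = 0.000737 from limma). It was 1.22 without Ctrl replicate 3. With Ctrl replicate 1, Ctrl replicate 2 or NE replicate 1 left out it was 0.977, 0.974 or 0.996, just under the fold criterion. After the GC correction it was 0.40 (adjusted p = 0.0104 from limma), still past the threshold but less than the fold criterion. The exons of ATF2 have a GC content of 37.2%.

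ATF7 (ENSG00000170653), the closest relative of ATF2, lies on the minus strand of chromosome 12 from 53507856 to 53626410. It had 755.0, 765.3 and 904.5 normalized counts in Ctrl and 867.6, 824.2 and 697.2 in NE. The groups overlapped. The log2 fold change was -0.02 with a 95% interval of -0.32 to 0.27 (adjusted p = 0.9 from limma). CREB5 (ENSG00000146592), also of this subfamily, lies on the plus strand of chromosome 7 from 28299321 to 28825894 and was the least expressed of the 8. It had 41.9, 46.7 and 79.4 normalized counts in Ctrl, and 60.3, 37.8 and 42.9 in NE. Its interval was wide, from -0.92 to 0.49 around -0.22 (adjusted p = 0.584 from limma), so changes inside this interval in either direction could not be told from none at this depth and spread. Without Ctrl replicate 3 the estimates were 0.06 for ATF7 and 0.06 for CREB5, with the sign turned in both. The GC correction gave -0.05 for ATF7 (adjusted p = 0.772 from limma) and -0.60 for CREB5 (95% interval -1.25 to 0.05, adjusted p = 0.141).

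The coactivators changed less than CREM in the 3 fits, and less than ATF2 in the fits without the GC correction; with it, CREBBP at 0.87 and EP300 at 0.43 were above ATF2 at 0.40, and these differences were not tested. CREBBP (ENSG00000005339), the CREB-binding protein, lies on the minus strand of chromosome 16 from 3725054 to 3880713. It had 1280, 1237 and 873.1 normalized counts in Ctrl and 1743, 1617 and 1436 in NE. All NE libraries were above all Ctrl libraries, and Ctrl replicate 3 was the lowest of the 6. The log2 fold change was 0.52 (standard error 0.159, adjusted p = 0.0229 from limma). Without Ctrl replicate 3 the rise was 0.34, and after the GC correction 0.87, past the threshold in both. Leaving out NE replicate 1 or NE replicate 2 ended the call (adjusted p = 0.0924 and 0.0754 from limma). With 53.2% GC in its exons, CREBBP is the richest in GC of the 8, and the correction raised its difference while it lowered that of the other 7.

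EP300 (ENSG00000100393), the paralog of CREBBP, lies on the plus strand of chromosome 22 from 41092592 to 41180077. Its normalized counts were 503.7, 562.0 and 478.2 in Ctrl, against 869.6, 690.6 and 593.0 in NE. The lowest NE library was just above the highest Ctrl library. EP300 rose by 0.46 on the log2 scale (standard error 0.156, adjusted p = 0.033 from limma), and by 0.43 after the GC correction (adjusted p = 0.0454). The call was lost without Ctrl replicate 1, NE replicate 1 or NE replicate 2 (adjusted p = 0.0791, 0.116 and 0.0822 from limma). Per length, CREBBP was at 1.92, 1.66 and 1.38 times EP300 in the Ctrl libraries and at 1.51, 1.77 and 1.83 times in the NE libraries, and these ranges overlapped.

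**Figure D3:**
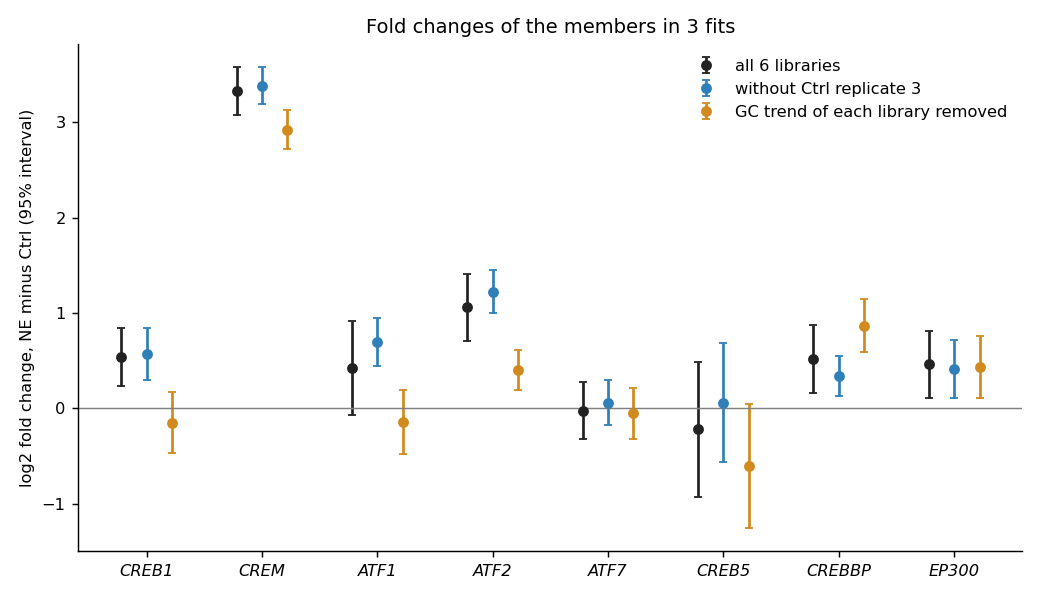
Log2 fold change of NE minus Ctrl (y axis) with its 95% interval for the 8 genes, from limma with all 6 libraries, without Ctrl replicate 3, and with the GC trend of each library removed. CREM lay between 2.92 and 3.38 in the 3 fits, ATF2, CREBBP and EP300 stayed above 0, and CREB1 and ATF1 fell below 0 only after the GC correction.

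After the GC correction 4 of the 8 genes were higher at an adjusted p under 0.05 in limma, namely CREM, ATF2, CREBBP and EP300, against 14.5% of all genes higher and 17.7% lower. With the fold criterion CREM alone was called, against 3.67% of all genes higher and 2.31% lower. Without Ctrl replicate 3 the number was 6, the 5 named before and ATF1, against 31.9% of all genes; with the fold criterion it was CREM and ATF2, against 10.8%. Without Ctrl replicate 3, 1507 of all 15061 genes tested were lower with the fold criterion. Without that criterion, 3824 of the 10925 tested genes with a start window were lower in the same fit. In neither fit, with the GC correction or without Ctrl replicate 3, was a member lower. The parts that GC content and Ctrl replicate 3 play in these differences were not tested.

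To compare levels between genes, the recovered reads were divided by the length of the merged exons and by the reads on genes (FPKM); the transcripts that the cells make may be shorter. In Ctrl the order of the mean FPKM was ATF1 at 9.69, ATF7 at 5.63, ATF2 at 4.23, CREBBP at 4.04, EP300 at 2.44, CREM at 2.33, CREB1 at 1.60 and CREB5 at 0.267. Library ranges overlapped between ATF7 and ATF2, between ATF2 and CREBBP, and between EP300 and CREM. Within each Ctrl library ATF2 was nonetheless below ATF7, at 0.709, 0.696 and 0.833 times its level. ATF2 was below CREBBP in Ctrl replicate 1 (3.68 against 4.54) and Ctrl replicate 2 (3.66 against 4.38). It was above CREBBP in Ctrl replicate 3 alone (5.36 against 3.20), so the order of these means rested on that library. EP300 was above CREM in Ctrl replicates 1 and 2 and below it in Ctrl replicate 3. In NE the order was CREM at 25.8, ATF1 at 13.7, ATF2 at 9.55, CREBBP at 6.29, ATF7 at 6.07, EP300 at 3.73, CREB1 at 2.54 and CREB5 at 0.244. Here the ranges of CREBBP and ATF7 alone overlapped among neighbours, though CREBBP was above ATF7 within each NE library. CREM thus stood below ATF1, ATF7, ATF2 and CREBBP in every Ctrl library, and above all 7 other genes in every NE library.

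Within the PKA-responsive subfamily the make-up of the mRNA pool differed between the groups. CREM gave 18.7%, 20.4% and 14.2% of the summed FPKM of CREB1, CREM and ATF1 in the Ctrl libraries, and 61.6%, 59.6% and 62.8% in the NE libraries. ATF1 made up 67.4%, 66.4% and 76.4% in Ctrl, and 32.1%, 34.4% and 31.4% in NE. The share of CREB1 was 13.9%, 13.2% and 9.44% in Ctrl but 6.31%, 6.06% and 5.78% in NE, although its own level was not lower. The ratio of CREM to CREB1 per length was 1.34, 1.55 and 1.50 in Ctrl, and 9.76, 9.82 and 10.9 in NE. CREM thus went from a minor part to the larger part of this pool. The summed FPKM of the 3 genes was 12.2, 10.6 and 18.1 in Ctrl against 41.7, 42.6 and 41.8 in NE. In the other subfamily ATF2 gave 40.6%, 40.1% and 44% of the sum in Ctrl and 60.0%, 58.8% and 61.9% in NE, changing places with ATF7. CREB5 was under 3.2% of that sum in every library. None of these shares carries the GC correction, after which the log2 fold changes were 0.40 for ATF2 and -0.05 for ATF7. The shares are given as a description and were not tested.

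**Figure D4:**
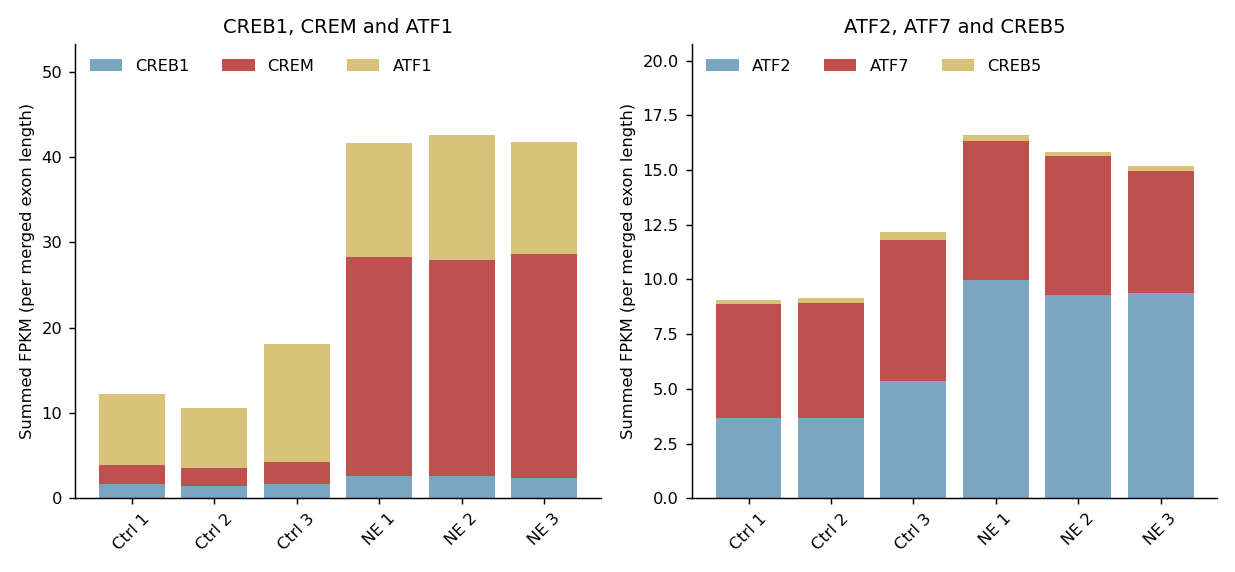
Stacked FPKM (y axes, recovered reads per merged exon length) of CREB1, CREM and ATF1 (left) and of ATF2, ATF7 and CREB5 (right) in each library. The CREM part is between 2.16 and 2.57 in Ctrl and between 25.4 and 26.2 in NE, and the ATF2 part between 3.66 and 5.36 in Ctrl and between 9.31 and 9.96 in NE.

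The lists around the family are to be read beside all genes tested, of which 24.6% were higher and 25.5% lower by the same rule. With the GC trend removed these shares were 14.5% and 17.7%, and 31.9% were higher without Ctrl replicate 3. For lower genes without Ctrl replicate 3, the count was 3824 of the 10925 tested genes with a start window. Of 16 related bZIP factors and their regulators, 15 were tested, of which 6 were higher, 6 lower and 3 did not pass (adjusted p from limma), with a median log2 fold change of -0.10. CREB3L2, a membrane-bound factor of the endoplasmic reticulum that is released by cleavage, had 784.4, 822.3 and 804.5 normalized counts in Ctrl and 4461, 3870 and 3809 in NE. Its log2 fold change of 2.33 (adjusted p = 3.2e-06 from limma) was second to that of CREM among both sets and stayed at 2.35 after the GC correction. CREBRF, a regulator of CREB3, rose by 1.38 on the log2 scale and stood at 0.73 after the correction. The 6 that fell had log2 fold changes from -0.77 to -0.47. With the GC trend removed 2 were higher and 1 lower, and without Ctrl replicate 3 the numbers were 6 and 7.

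Upstream of CREB, the 9 tested PKA subunits and inhibitors had 4 higher and 2 lower at an adjusted p under 0.05 in limma, against 1 and 0 after the GC correction and 5 and 3 without Ctrl replicate 3. PKIA, which encodes a peptide inhibitor of the PKA catalytic subunit, had 893.3, 965.4 and 1432 normalized counts in Ctrl and 2760, 2350 and 2070 in NE. The groups did not overlap, and PKIA rose by 1.15 on the log2 scale (adjusted p = 0.00108 from limma); the corrected value was 0.49. Among 9 tested kinases other than PKA that phosphorylate CREB, 2 were higher and 2 lower, with the same numbers after the correction and 4 and 2 without Ctrl replicate 3. With all libraries the kinase counts were near the shares over all genes tested, 24.6% higher and 25.5% lower. RPS6KA4, the nuclear kinase MSK2, fell from 2804, 2581 and 1916 normalized counts to 910.1, 926.9 and 830.6, by 1.43 on the log2 scale (adjusted p = 0.000165 from limma), and was at -0.77 after the correction. Of the CRTC coactivators, which carry the cAMP signal to CREB without its phosphorylation, and the salt-inducible kinases that hold them in the cytoplasm, 5 were tested. SIK2 and SIK3, named after their values were seen, were higher, with log2 fold changes of 0.39 and 0.59 (adjusted p = 0.0353 and 0.00342 from limma). The values of CRTC1, CRTC2 and CRTC3 were -0.02, -0.40 and -0.30, and none passed. With the correction 3 of the 5 were higher and 0 lower, with CRTC1 at 0.61, CRTC2 at 0.16 and CRTC3 at -0.19. Without Ctrl replicate 3 instead, 2 were higher and 2 lower, and the values were -0.33, -0.59 and -0.31, so the direction of CRTC1 and CRTC2 turned with the processing.

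Beside CREBBP and EP300, 12 other acetyltransferases and proteins that bind the pair were tested, of which 6 were higher and 2 lower by limma. The GC correction left 4 and 1, and without Ctrl replicate 3 the numbers were 7 and 4. Over all genes tested 24.6% were higher and 25.5% lower, and 14.5% and 17.7% after the correction. The acetyltransferase KAT6B rose by 1.33 on the log2 scale, from 349.8, 342.2 and 289.1 normalized counts in Ctrl to 922.9, 846.5 and 703.6 in NE. The nuclear receptor coactivator NCOA2 rose by 1.10. Corrected for GC these were 0.95 and 0.88, under the fold criterion. CITED2 and CITED4, small proteins that bind the CH1 domain of CREBBP and EP300, went opposite ways. CITED2 had 1753, 1641 and 2089 normalized counts in Ctrl and 3915, 3977 and 3858 in NE, a log2 fold change of 1.11 (adjusted p = 0.000155 from limma). CITED4 had 567.6, 516.4 and 565.4 in Ctrl and 227.3, 231.5 and 254.9 in NE, a log2 fold change of -1.21 (adjusted p = 0.000166 from limma). After the GC correction the values were 1.19 for CITED2 and -0.53 for CITED4.

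Downstream, 13 of 19 tested CREB target genes were higher and 1, JUNB, lower by limma, with a median log2 fold change of 1.23. After the GC correction 14 were higher and 0 lower, and without Ctrl replicate 3 the numbers were 14 and 2. The shares over all genes tested were 24.6% higher and 25.5% lower, and 14.5% and 17.7% after the correction. The orphan receptors NR4A2, NR4A3 and NR4A1 and the cAMP phosphodiesterases PDE4B and PDE4D had the largest values, from 2.92 to 6.51. Only NR4A2 and NR4A3 in that list were above the 3.33 of CREM. Genes with the palindrome in a RefSeq start window made a broader set, of which 428 were tested. Of these 9.35% were higher with the fold criterion, and of the 10970 tested genes with a start window 7.36%. The shares lower were 6.54% and 6.42%. With the GC trend removed the shares higher were 6.31% and 3.16%. Without the fold criterion, 31.8% and 26.3% were higher and 25% and 27.8% lower in the fit with all libraries and no correction. With the GC trend removed, 19.6% and 15.2% were higher and 16.8% and 19.3% lower without that criterion. The differences between these shares were not tested.

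Over the 6 libraries, the log2 profiles closest to that of CREM were those of TPPP, STC1 and PDE4B, at Euclidean distances of 0.40, 0.45 and 0.46 once each profile was centred on its Ctrl mean. TPPP binds tubulin, STC1 is the secreted hormone stanniocalcin and PDE4B degrades cAMP. They had log2 fold changes of 3.52, 3.07 and 3.25. CREB5, the member with the lowest log2 fold change, was closest to EEF1A1P6, CASP2 and HIKESHI, at distances of 0.23, 0.31 and 0.35, and none of the 3 passed the test. EEF1A1P6 is a processed pseudogene whose reads may come from near-identical copies.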

How the data were processed

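NCI-H1299 cells were sequenced as 3 Ctrl and 3 NE libraries, grouped by the sample titles. According to the submitters' processing notes the authors aligned reads to hg38 with HISAT2 2.0.5 and counted them per gene with featureCounts 1.5.0-p3; the paper names DESeq2 and FPKM. Each value of the deposited signal is a gene count over the size factor of its library, since 100% of values gave whole reads (tolerance 0.01 reads). No molecular identifiers were used, so reads are not independent molecules.

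The deposited values were compared with limma 3.58.1 (lmFit, eBayes with trend) on log2(value + 1) for 15013 genes whose mean reached 10, with Benjamini-Hochberg adjustment over all of them. This scale shrinks the fold changes of low genes. A gene passed at an adjusted p under 0.05, and was called if its log2 fold change was also 1 or more in size. Exon length and GC content came from GENCODE v44 and hg38 for 25813 of 26025 genes, and start windows from RefSeq (GRCh38.p14), which held 7 of the 8 genes. The GC correction took out of each library its own trend on GC (natural spline, 5 degrees of freedom).

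Alternatives were other pseudocounts, filters and scalings, a replicate block, each library left out, recomputed FPKM, and edgeR 4.0.16, DESeq2 1.42.0 and voom on the recovered reads. Named genes were all 8 members, at most 5 called genes per list, and the 3 nearest profiles of the members with the highest and lowest log2 fold change. Members, lists and alternatives were chosen with earlier results of these data known. Simulated counts had the same dispersion for all genes, no GC trend and no library like Ctrl replicate 3. On them limma recovered 99.5% of 200 well-expressed genes changed by 1.5 on the log2 scale among 15046. Recovery of smaller changes was not tested. SFTPC, PTPRC, CD3E and SIK1 were not analysed here.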

Additional observations from a re-analysis of the deposited data

How the results depend on the processing

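With 3 libraries per group, a change in a low gene such as CREB5 cannot be bounded closely. CREM and ATF2 kept their direction and an adjusted p under 0.05 in all 20 alternatives, from 2.91 to 3.41 and from 0.40 to 1.22 on the log2 scale. For what changed, the cause was not tested. With the GC correction 549 genes were called higher and 346 lower, with the GC and length correction 542 and 318, each with 1 called member, CREM, where 2 had been called. They took CREB1 to -0.147 and -0.236 and ATF1 to -0.141 and -0.00332, and the latter left EP300 at 0.307 (adjusted p = 0.134 from limma). Recomputed FPKM gave 517 lower genes, put ATF7 at 0.112 with the median of all genes at 0.117, and left CREB5 under its minimum. Without a trend in eBayes, CREBBP at 0.517 and EP300 at 0.464 no longer passed (adjusted p = 0.0602 and 0.066 from limma). An adjusted p alone gave 3693 higher genes, 5 of them members, and 3828 lower genes.

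Across the fits that left out a library, 815 to 1628 genes were higher and 777 to 1507 lower, the most without Ctrl replicate 3, and 1 or 2 members were called, CREM alone without Ctrl replicate 1, Ctrl replicate 2 or NE replicate 1. ATF1 ran from 0.23 to 0.70, passing only without Ctrl replicate 3. CREBBP ran from 0.34 to 0.62 and did not pass without NE replicate 1 or 2. EP300 ran from 0.32 to 0.59 and did not pass without Ctrl replicate 1, NE replicate 1 or NE replicate 2. ATF7 ran from -0.0875 to 0.0700, above 0 without Ctrl replicate 3 or NE replicate 3, and CREB5 from -0.408 to 0.0586, above 0 without Ctrl replicate 3. The log2 ratio of CREBBP to EP300 ran from -0.0721 to 0.166, below 0 without Ctrl replicate 3 or NE replicate 3. With the replicate block, which changed no call of a member, 1049 genes were higher and 924 lower; deviations of same-numbered libraries correlated at -0.163, 0.0799 and -0.151, so the numbers give no sign of pairing.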

Other observations

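Other genes overlap the exons of the family. The readthrough gene ATF7-NPFF, listed in the table as AC023509.3, shares 1284 exonic bases with ATF7 on the same strand and had 10.5, 9.33 and 6.86 normalized counts in Ctrl and 12.8, 13.6 and 20.1 in NE (adjusted p = 0.207 from limma). The other overlapping genes of ATF2, ATF7, CREB1, CREM and EP300, apart from CUL2, had means of 4.69 normalized counts or fewer.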
